A study of Mus musculus with 8 samples.

Results

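The 8 transcription factor genes described here set the course of T cell development: Gata3, Tox, Zbtb7b, Tcf7, Lef1, Satb1, Sox4 and Ikzf1. They were chosen by gene symbol, with earlier results of these data known. All probe sets that the platform annotation gives to one of these symbols alone were taken, 9 of 12422. These 9 stand for 6 of the 8 genes: Lef1, Sox4 and Ikzf1 with 2 probe sets each, and Gata3, Satb1 and Zbtb7b with 1. No probe set was named for Tox or Tcf7, so these genes were not analysed here. A series with 8251 named genes thus gives values for 6 of the 8, and 8 of the 9 probe sets were bright enough to be tested.

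Total RNA of mouse double positive thymocytes, T cell precursors with CD4 as well as CD8 on their surface, was measured on 8 arrays in a study of antibody engagement of the T cell receptor. The 4 groups of 2 arrays are named in the titles as control, overnight control, Valpha2 and Vbeta5, the last 2 after variable segments of the receptor's alpha and beta chains. The sources used here do not give strain, genotype, age, antibody clone, dose or time, nor what separates the control from the overnight control apart from that word. The titles number the arrays of each group 1 and 2, and nothing says that they came from separate cultures or animals, so the spread between them may be technical.

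As background, Tcf7 (TCF-1) and Lef1 are sister factors with an HMG box, a DNA-bending domain, that start and keep the T cell program and later favour the CD4 lineage. Sox4 and Tox belong to the wider HMG box family, and Tox is needed for the CD4 lineage to form after positive selection. Gata3, a zinc finger factor, is needed from the earliest T cell precursors onward and again for the CD4 choice, where it acts upstream of Zbtb7b (ThPOK), the factor that commits cells to the CD4 lineage. Ikzf1 (Ikaros) is a zinc finger factor that works with chromatin remodellers, and Satb1 organises chromatin loops and is abundant in double positive cells. Signalling through the T cell receptor at this stage is known to raise Gata3 and Tox in selected thymocytes.

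The sequence just upstream of a listed start of transcription is shown for Lef1, Gata3 and Satb1. The signals of Lef1 and Gata3 moved together across the arrays. A Sox4 probe set, 160109_at, did so too, at r = 0.89 with Gata3 and 0.75 and 0.9 with the Lef1 probe sets. Satb1 was lower on both Vbeta5 arrays than on both overnight control arrays, where Lef1 and Gata3 were higher. Each window holds 250 bases before the most upstream start listed by RefSeq, 5′ to 3′ on the gene's strand, on build GRCm38.p6. The number of listed starts was 4 for Lef1, 1 for Gata3 and 5 for Satb1, and which of them these cells use was not tested. The windows lie at chr3:131110047-131110296 (plus strand) for Lef1, chr2:9878601-9878850 (minus strand) for Gata3 and chr17:51833291-51833540 (minus strand) for Satb1. Capitals mark matches, on either strand, to any of 7 short motifs. These were AGATAA for GATA factors, CTTTGA for TCF and LEF factors, TGTGGT for Runx factors, GCGTGGG for Egr factors, TGANTCA for AP-1, GGAAAA as the core of NFAT sites, and GGGCGG as the GC box.
Lef1: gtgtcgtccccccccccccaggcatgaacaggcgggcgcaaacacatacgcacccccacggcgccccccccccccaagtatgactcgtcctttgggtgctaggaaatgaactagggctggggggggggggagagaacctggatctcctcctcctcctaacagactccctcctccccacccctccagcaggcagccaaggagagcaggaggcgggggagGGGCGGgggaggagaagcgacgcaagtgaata
Gata3: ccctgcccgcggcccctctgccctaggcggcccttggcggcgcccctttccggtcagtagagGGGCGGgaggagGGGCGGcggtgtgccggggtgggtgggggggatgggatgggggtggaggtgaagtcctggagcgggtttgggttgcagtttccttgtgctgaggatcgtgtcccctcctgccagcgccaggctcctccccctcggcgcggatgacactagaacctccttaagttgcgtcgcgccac
Satb1: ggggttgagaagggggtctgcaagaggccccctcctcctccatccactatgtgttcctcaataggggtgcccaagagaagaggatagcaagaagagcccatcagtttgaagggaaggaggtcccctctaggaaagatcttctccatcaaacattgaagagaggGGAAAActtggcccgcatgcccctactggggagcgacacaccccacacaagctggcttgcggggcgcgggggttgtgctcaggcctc
The Lef1 window held 1 GC box and the Gata3 window held 2, and neither matched any of the other motifs. The Satb1 window held 1 match to the NFAT core only. Among all 32851 windows of this length, 32.7% held a GC box, 20.4% the NFAT core, 14.0% the Runx letters, 13.8% the TCF/LEF letters, 9.99% the GATA letters, 6.75% the AP-1 letters and 4.3% the Egr letters. Egr and GC box matches can overlap each other. A match is a description of the letters, not of a bound site.

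The deposited values are signals (intensity on a linear scale), already normalized by the authors, and each signal belongs to its probe set, so levels were not compared between genes. Differences are on the log2(signal + 17) scale and understate changes of dim probe sets. They were tested with limma on 8281 probe sets, two-sided, with Benjamini-Hochberg adjustment over all of them and a threshold of 0.05. The interval given with a difference is limma's 95% interval. No detection calls entered, so whether a dim probe set lies above background is not known, and 2 arrays per group limit the precision. In bulk RNA, fewer cells of a type and less RNA per cell cannot be told apart.

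The Gapdh control probe sets, read as log2 of the 3′ over the 5′ signal, gave a measure of RNA quality. It stood at 1.72 for array 1 of Valpha2, 0.95 for array 1 of the overnight control and 0.48 for array 1 of Vbeta5, while the other 5 arrays had -0.28 to -0.09. Of 11 double positive stage markers 8 had a probe set, and their summed signal was 34629 to 54573 on the 6 arrays other than Vbeta5, and 21890 and 11891 on the Vbeta5 arrays. The summed signal of 7 B cell markers was 4010 to 5420 on those 6 arrays and 2787 and 3494 with Vbeta5. The brightest of them, an Ighm probe set, had a mean of 2564 with Vbeta5, 3987 in the control and 4093 in the overnight control. The 6 tested B cell genes did not all go this way. Their median log2 difference with Vbeta5 was 0.72 from the control and -0.17 from the overnight control. The other tested Ighm probe sets had log2 differences of -0.83 to 0.84 from the control and -0.98 to 0.42 from the overnight control. Myeloid and dendritic markers (13 genes, 6 of them tested) summed to 563 to 1406 elsewhere and to 1130 and 1150 with Vbeta5. The 1406 came from array 1 of the overnight control, and the next highest array outside Vbeta5 was Valpha2 array 1 at 747. Lyz2 lay under 17 on every array. The ranges over all 8 arrays were 302 to 916 for 7 NK and gamma delta T cell markers, 594 to 1915 for 11 thymic stroma markers and 211 to 487 for 4 erythroid markers. The part of these differences in the results was not tested.

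Lef1 had the largest difference of the 5 genes tested. Its signal was higher on both Vbeta5 arrays than on every other array, on each of its 2 probe sets. The annotation gives both probe sets the same source sequence, so they are not independent. On probe set 103628_at the signal was 2413 and 1981 in the control, 1789 and 1530 in the overnight control, 1538 and 2148 with Valpha2, and 3538 and 4427 with Vbeta5. On 103629_g_at it was 1365 and 1391 in the control, 624 and 1241 in the overnight control, 623 and 1295 with Valpha2, and 2704 and 3134 with Vbeta5. Both overnight control arrays lay below both control arrays on each probe set, and the overnight control and Valpha2 arrays overlapped.

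**Figure D1:**
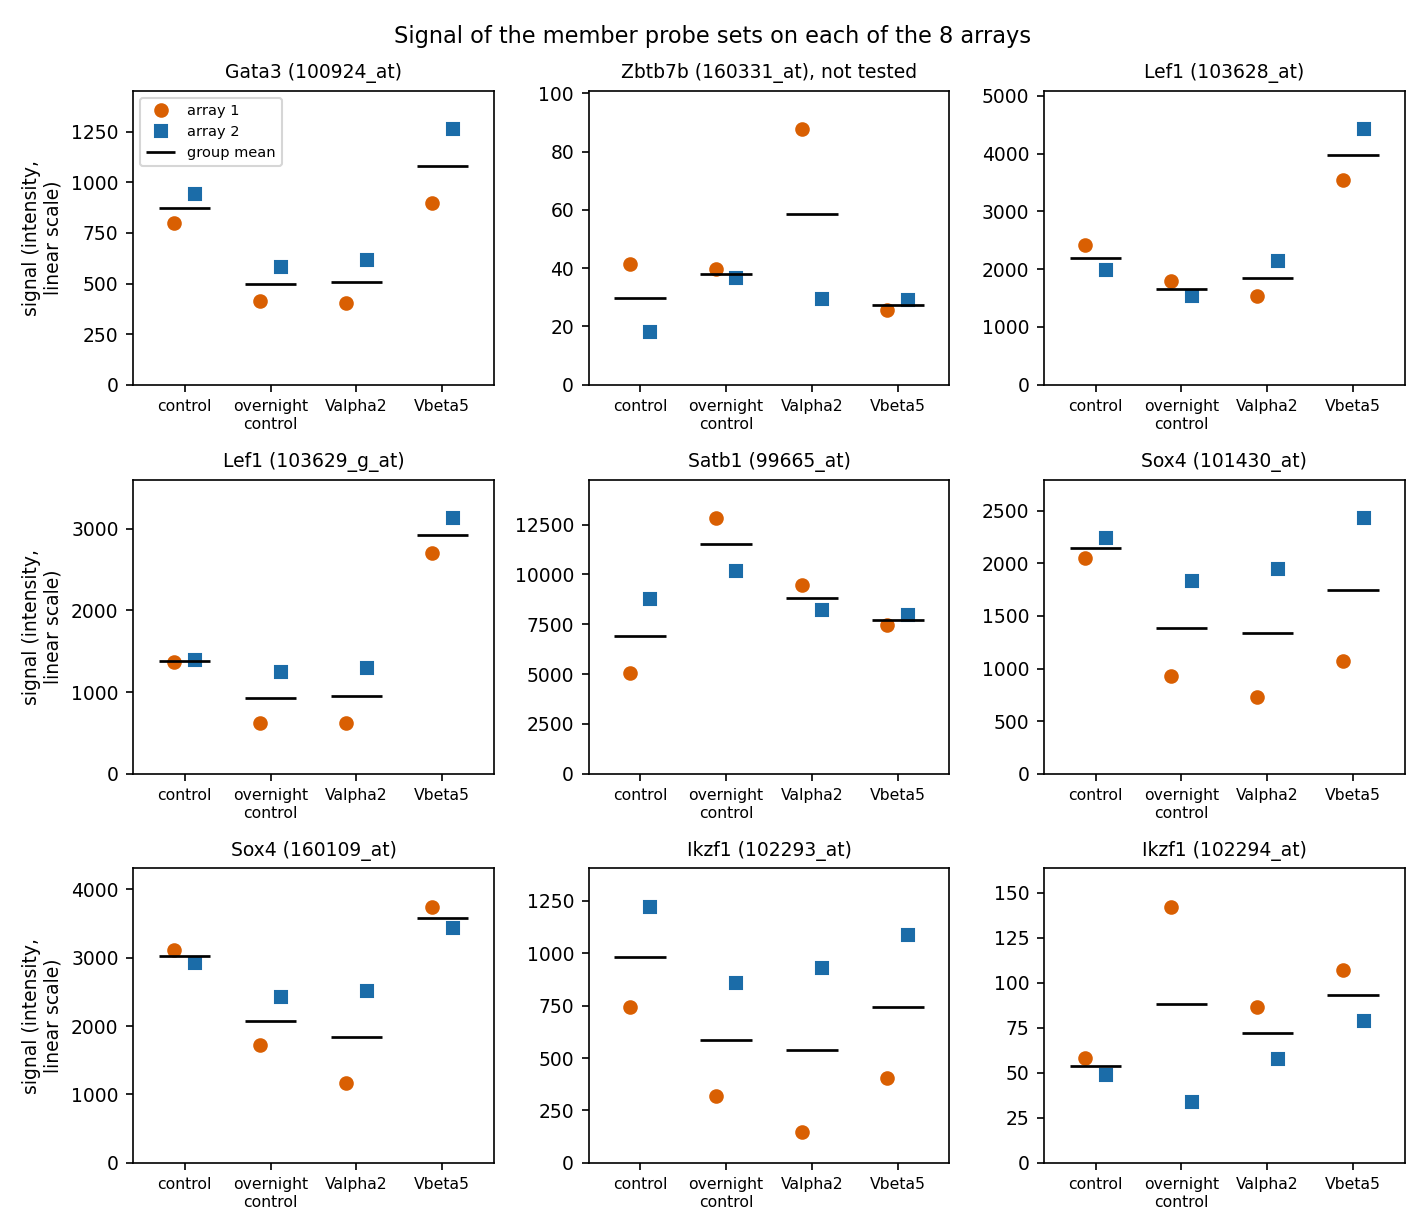
Signal (intensity, linear scale from 0) of the 9 probe sets in the 4 groups; circles are array 1, squares are array 2 and the bar is the mean of the 2. Lef1 reached 3538 and 4427 (103628_at) on the Vbeta5 arrays, above all other arrays, while Ikzf1 (102293_at) was lower on array 1 than on array 2 in every group.

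Between Vbeta5 and the overnight control, Lef1 differed 2.38-fold on 103628_at, from 1660 ± 183 to 3982 ± 629 (SD, n = 2), a log2 difference of 1.25 ± 0.24 (SE; interval 0.71 to 1.78). On 103629_g_at the difference was 3.26-fold, from 932 ± 436 to 2919 ± 304, or 1.71 ± 0.37 on the log2 scale (interval 0.89 to 2.53). Neither passed the threshold, with limma adjusted p of 0.0535 and 0.0862. Over the alternative settings the adjusted p ranged from 0.0194 to 0.479 on 103628_at and from 0.00746 to 0.542 on 103629_g_at, with the sign the same in all of them. Taking only arrays of the same number, the difference was 0.98 between arrays 1 and 1.52 between arrays 2 on 103628_at, and 2.09 and 1.33 on 103629_g_at. Without the 3 arrays of high 3′ to 5′ ratio it was 1.52 and 1.33. That setting compares 1 array with 1, and its limma adjusted p of 0.0199 and 0.0404 take their spread from the 2 control arrays alone (1 residual degree of freedom), so they are no replicate test of these groups. Probe set 103629_g_at passed without Valpha2 array 1 (0.047) and without Valpha2 array 2 (0.0459), and its difference was 1.71 in each case.

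The difference of Lef1 between the antibody groups was 1.11 ± 0.24 (SE) on 103628_at and 1.68 ± 0.37 on 103629_g_at, higher with Vbeta5. It did not pass either (limma adjusted p = 0.11 and 0.119), with intervals of 0.58 to 1.65 and 0.86 to 2.5, and the adjusted p ran from 0.0426 to 0.903 and from 0.0129 to 0.903 over the alternative settings. Set against the control, Vbeta5 was higher by 0.85 ± 0.24 and 1.07 ± 0.37 (adjusted p = 0.15 and 0.27). Probe set 103629_g_at passed this comparison in a fit of the control and Vbeta5 arrays alone (adjusted p = 0.0323). Valpha2 differed from the overnight control by 0.13 (interval -0.40 to 0.67) and 0.03 (interval -0.79 to 0.85), and the overnight control from the control by -0.40 and -0.64, with adjusted p of 0.631 and 0.618. In the order of group means, Vbeta5 stood highest, then the control, Valpha2 and the overnight control, and the lower 2 did not differ beyond their spread. The 3 genes whose signal followed Lef1 (103628_at) most closely over the 8 arrays were Evl (r = 0.975), Irf1 (0.973) and Hsph1 (0.973), as a description over arrays that share their groups.

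Gata3 was higher on both Vbeta5 arrays than on either overnight control or Valpha2 array, and its control arrays lay in between or overlapped. The signal of 100924_at was 797 and 944 in the control, 412 and 580 in the overnight control, 404 and 615 with Valpha2, and 899 and 1264 with Vbeta5. Array 1 was the lower one in all 4 groups. Vbeta5 differed from the overnight control 2.14-fold, a log2 difference of 1.10 ± 0.29 (SE; interval 0.45 to 1.75), and did not pass (limma adjusted p = 0.189, and 0.0275 to 0.723 over the alternative settings). The difference was 1.10 between arrays 1 and 1.10 between arrays 2.

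Gata3 differed between the overnight control and the control by -0.81 ± 0.29 on the log2 scale (interval -1.45 to -0.16, adjusted p = 0.455), with no overlap of the arrays. Vbeta5 differed from the control by 0.29 ± 0.29 (interval -0.36 to 0.94, adjusted p = 0.771), with overlapping arrays. Valpha2 differed from the overnight control by 0.03 (interval -0.62 to 0.68), and Vbeta5 from Valpha2 by 1.07 ± 0.29 (adjusted p = 0.243, and 0.0352 to 0.999 over the alternative settings). By group means Vbeta5 and the control stood above Valpha2 and the overnight control, and the arrays overlapped within each pair. None of these differences passed the threshold in the fit of all 8 arrays, so this order is a description. Closest to Gata3 over the 8 arrays were Gpn1 (r = 0.986), Dhrs7b (0.985) and Cd2 (0.964), the last an adhesion molecule of T cells. Gata3 correlated with Lef1 at r = 0.82 on 103628_at and 0.92 on 103629_g_at, over the same 8 arrays.

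**Figure D2:**
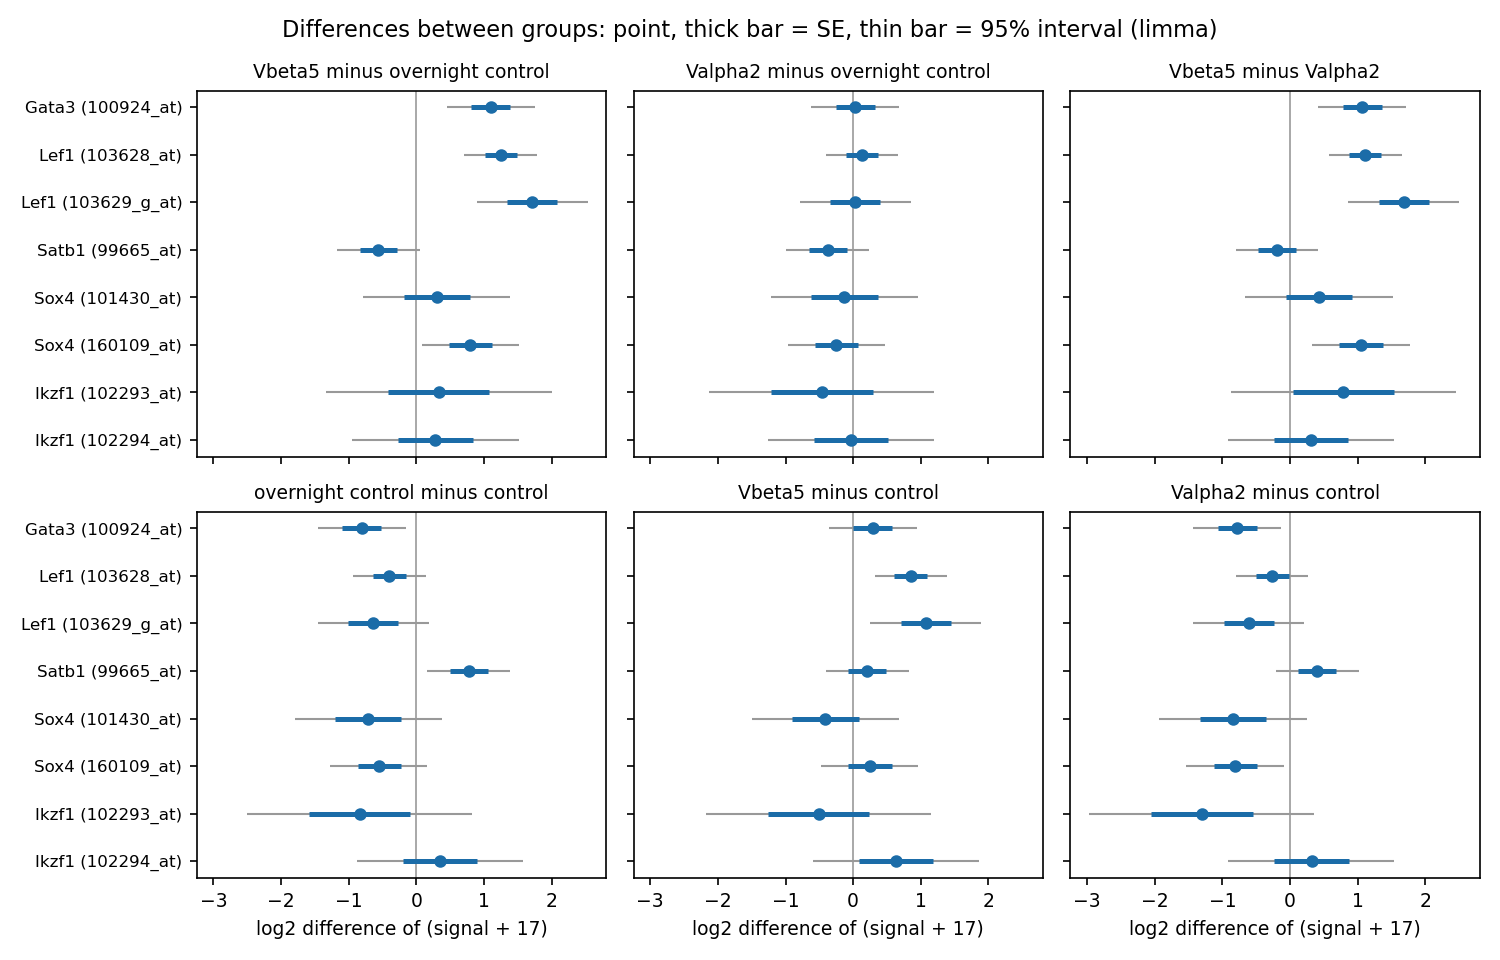
Log2 difference of (signal + 17) for the 8 tested probe sets in 6 comparisons; points are estimates, thick bars the SE and thin bars the 95% interval from limma. Against the overnight control, Vbeta5 had its largest differences on the 2 Lef1 probe sets (1.25 and 1.71) and Gata3 (1.10), where Valpha2 differed by 0.13, 0.03 and 0.03.

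Sox4, an HMG box factor expressed in immature thymocytes, gave unlike patterns on its 2 probe sets, which have different source sequences. On 160109_at the signal was 3114 and 2924 in the control, 1728 and 2431 in the overnight control, 1173 and 2510 with Valpha2, and 3743 and 3427 with Vbeta5. There the Vbeta5 arrays were above all others. On 101430_at it was 2052 and 2239 in the control, 930 and 1836 in the overnight control, 730 and 1944 with Valpha2, and 1068 and 2432 with Vbeta5. The 3 arrays of high 3′ to 5′ ratio were the 3 lowest on this probe set, and every pair of groups but 2 overlapped: both overnight control arrays and both Valpha2 arrays were below both control arrays.

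For 160109_at, Vbeta5 differed from the overnight control by 0.80 ± 0.32 (SE) on the log2 scale (interval 0.08 to 1.52, limma adjusted p = 0.51) and from Valpha2 by 1.05 ± 0.32 (interval 0.33 to 1.77, adjusted p = 0.309). These differences were larger between arrays numbered 1, at 1.11 and 1.66, than between arrays numbered 2, at 0.49 and 0.45. For 101430_at the difference of Vbeta5 from the overnight control was 0.30 ± 0.49 (interval -0.79 to 1.39, adjusted p = 0.993), and it turned to -0.18 without overnight control array 1 and to -0.29 without Vbeta5 array 2. Against the control, Valpha2 was lower on both probe sets, by -0.81 ± 0.32 and -0.84 ± 0.49, without passing (adjusted p = 0.585 and 0.792). Between arrays numbered 1 these differences were -1.4 and -1.47, and between arrays numbered 2 they were -0.22 and -0.2. Array 1 of Valpha2 had the highest Gapdh 3′ to 5′ log2 ratio, 1.72. Over the 8 arrays the 2 probe sets correlated at r = 0.70, while 101430_at and the Ikzf1 probe set 102293_at correlated at 0.97. The genes closest to Sox4 (160109_at) were Cd6, a receptor on T cells, at r = 0.989, Ncoa2 at 0.971 and Sptan1 at 0.971.

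Ikzf1 varied widely between the 2 arrays of a group, by up to -2.54 on the log2 scale, where its largest difference between group means was -1.3. On 102293_at the signal was 744 and 1221 in the control, 317 and 859 in the overnight control, 146 and 931 with Valpha2, and 402 and 1086 with Vbeta5. Array 1 was below array 2 in every group, by -0.70 in the control, -1.39 in the overnight control, -2.54 with Valpha2 and -1.39 with Vbeta5 on the log2 scale. The Gapdh 3′ to 5′ log2 ratio on array 1 of these groups was -0.09, 0.95, 1.72 and 0.48. The lowest signal thus came from the array whose ratio was highest, and its part in the result was not tested. Over all tested probe sets the SD of the log2 difference between the 2 arrays was 0.517 in the control, 0.857 in the overnight control, 0.648 with Valpha2 and 0.62 with Vbeta5.

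**Figure D3:**
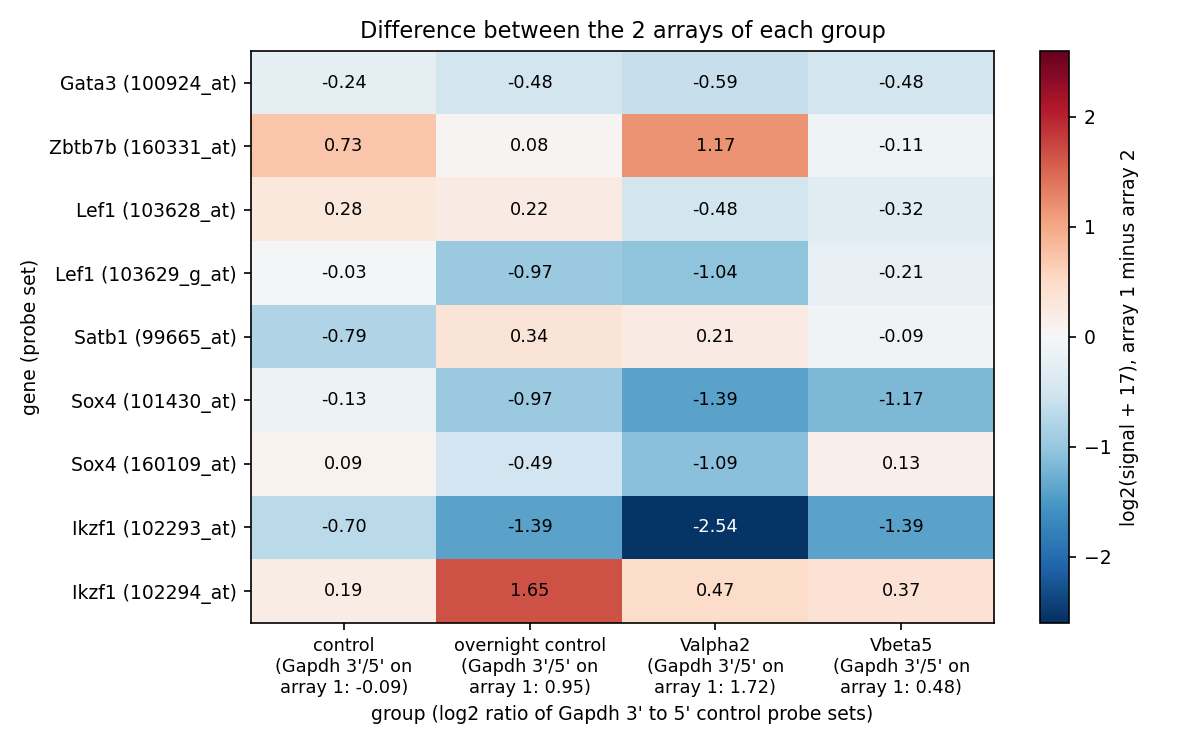
Log2(signal + 17) of array 1 minus array 2 within each of the 4 groups for the 9 probe sets, with the Gapdh 3′ to 5′ log2 ratio of array 1 under each group name. Ikzf1 (102293_at) had -0.70 in the control, -1.39 in the overnight control, -2.54 with Valpha2 and -1.39 with Vbeta5. Sox4 (101430_at) had -0.13, -0.97, -1.39 and -1.17 in the same order. With Valpha2, Satb1 (0.21), Zbtb7b (1.17) and Ikzf1 102294_at (0.47) were positive and the other probe sets negative.

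No Ikzf1 comparison approached the threshold. Vbeta5 differed from the overnight control by 0.33 ± 0.75 (SE; interval -1.33 to 2.00, limma adjusted p = 1.0). The sign turned to -0.37 without overnight control array 1 and also without Vbeta5 array 2. The other Ikzf1 probe set, 102294_at, for which the annotation gives no source sequence, was dim. Its signal was 58.4 and 49.0 in the control, 142 and 33.8 in the overnight control, 86.3 and 57.6 with Valpha2, and 107 and 78.9 with Vbeta5. The 2 Ikzf1 probe sets ran against each other, at r = -0.64 over the 8 arrays. Closest to 102293_at were Parg (r = 0.991), Diaph1 (0.981) and Pdia6 (0.977).

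Satb1 was the one gene of the 5 tested that was lower on both Vbeta5 arrays than on both overnight control arrays. The signal of 99665_at was 5055 and 8777 in the control, 12835 and 10167 in the overnight control, 9477 and 8194 with Valpha2, and 7473 and 7970 with Vbeta5. The overnight control arrays were above all others. The overnight control differed from the control by 0.78 ± 0.28 (SE; interval 0.16 to 1.39, limma adjusted p = 0.439), a difference of 1.34 between arrays 1 and 0.21 between arrays 2. Vbeta5 differed from the overnight control by -0.56 ± 0.28 (interval -1.18 to 0.05, adjusted p = 0.65) and Valpha2 by -0.37 ± 0.28 (interval -0.99 to 0.24, adjusted p = 1.0).

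Against the control, Satb1 differed by 0.21 ± 0.28 with Vbeta5 and by 0.40 ± 0.28 with Valpha2, with overlapping arrays in each case and adjusted p of 0.832 and 0.834. Without control array 1, the array with the lowest Satb1 signal, the Vbeta5 value turned to -0.19. In the order of group means the overnight control came first, then Valpha2, Vbeta5 and the control, and the lower 3 groups had adjusted p of 0.832 to 0.933 among themselves. Satb1 correlated negatively with Gata3 (r = -0.57) and with both Lef1 probe sets (-0.48 and -0.51) over the 8 arrays. Its closest genes were Macroh2a1, a histone variant, at r = 0.973, Mrps33 at 0.971 and Elk4 at 0.965.

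Zbtb7b, the CD4 lineage factor, was among the dimmest 33.3% of the probe sets and was not tested. The signal of 160331_at was 41.3 and 18.1 in the control, 39.6 and 36.7 in the overnight control, 87.8 and 29.6 with Valpha2, and 25.7 and 29.0 with Vbeta5. The highest value came from array 1 of Valpha2, where the 3′ to 5′ ratio was also highest. Both Vbeta5 arrays lay below both overnight control arrays, at a log2 difference of -0.31 ± 0.53 (SE) when no filter on dim probe sets was used (limma adjusted p = 1.0). At these signals neither presence nor absence of the transcript can be read from the array.

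Counted together, 0 of the 8 tested member probe sets passed the threshold between Vbeta5 and the overnight control by limma, where 0.616% of all tested probe sets did, 0.35% being higher with Vbeta5. By unadjusted p under 0.05 the count was 4 of 8 (both Lef1, Gata3 and Sox4 160109_at), where 8.43% of all tested probe sets reached it. These same 4 were higher on both Vbeta5 arrays than on both overnight control arrays, as were 15.8% of all tested, and 1, Satb1, was lower on both, as were 15.2%. The median log2 difference of the 8 was 0.57, against -0.01 over all tested probe sets, and the range was -0.56 to 1.71. The 8 stand for 5 genes, so they are not 8 independent values. The members, too, were chosen with earlier results of these data known. The shares over all tested probe sets, here and in the other comparisons, are therefore a description and no test of the members as a set.

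**Figure D4:**
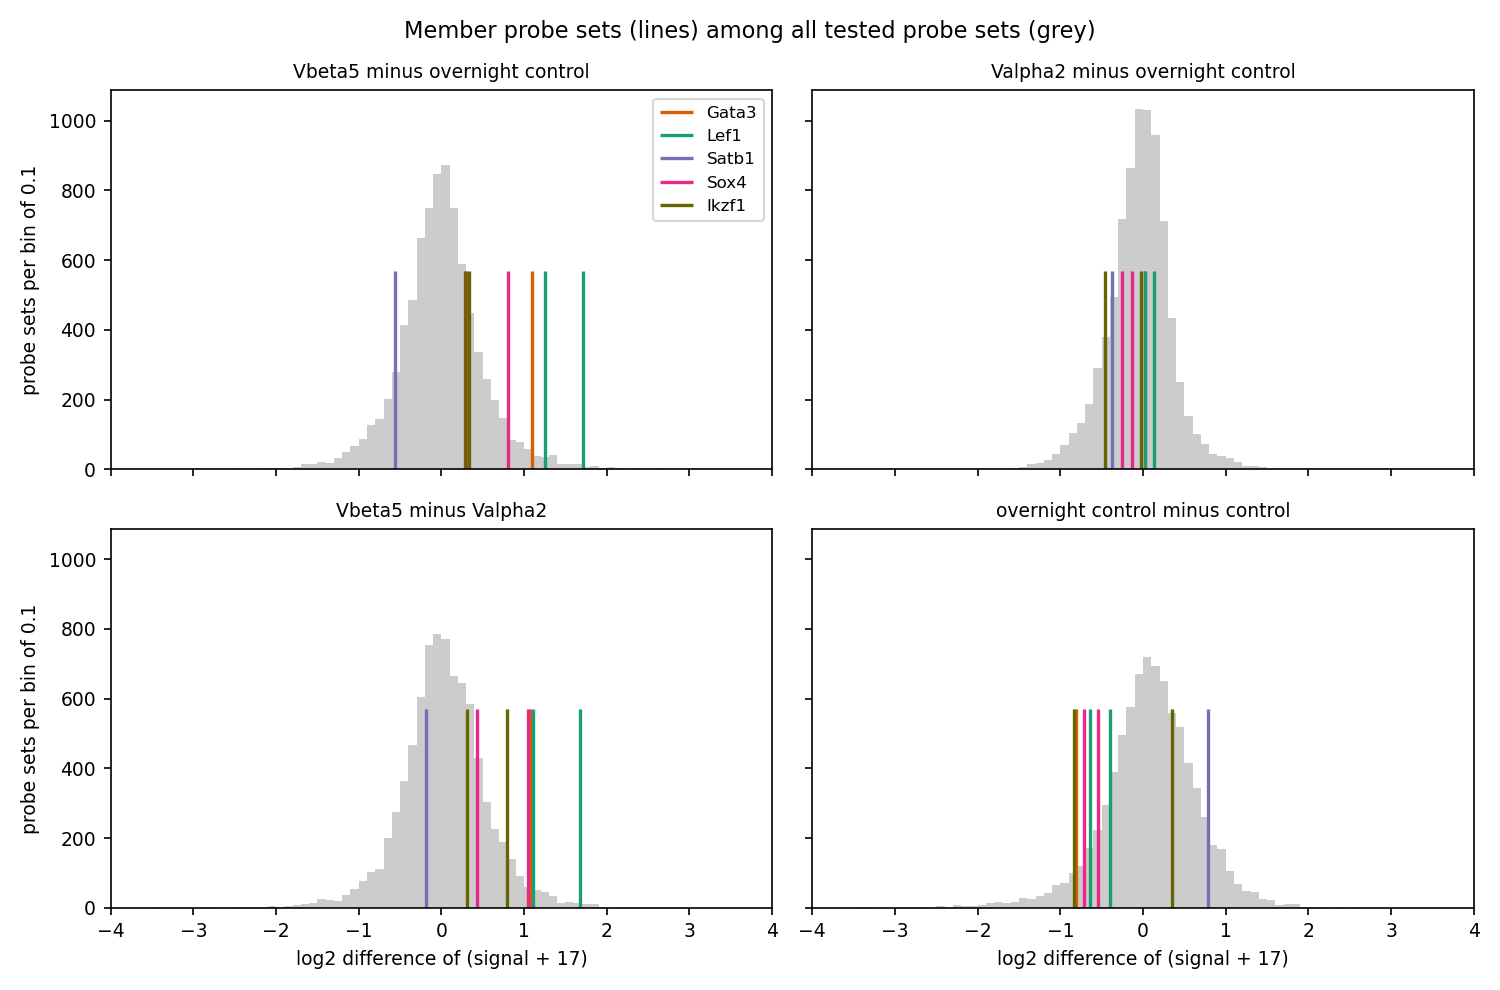
Log2 difference of (signal + 17) for all 8281 tested probe sets (grey, number per bin of 0.1) and for the member probe sets (coloured lines) in 4 comparisons. With Vbeta5 against the overnight control the lines run from -0.56 (Satb1) to 1.71 (Lef1), and with Valpha2 from -0.46 to 0.13.

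Between Valpha2 and the overnight control the 8 differences ran from -0.46 to 0.13, with a median of -0.08 against -0.02 over all tested. By limma 0 of 8 passed, all with an adjusted p of 1.0, and 0 had an unadjusted p under 0.05; of all tested probe sets 0.0% passed and 1.59% had such a p. Satb1 alone had no overlap, being lower on both Valpha2 arrays, as were 10.2% of all tested. This comparison shares the overnight control arrays with the one for Vbeta5, so the direct comparison of the antibody groups is the one that tests a difference between them. There, 0 of 8 passed by limma (0.278% of all tested did, 0.181% being lower with Vbeta5), with the smallest adjusted p at 0.11. By unadjusted p 4 of 8 were under 0.05 (8.16% of all tested), and the 4 higher on both Vbeta5 arrays were again both Lef1 probe sets, Gata3 and Sox4 160109_at (21.7% of all tested), while Satb1 was lower on both (18.5%). The median difference was 0.92 against 0.02.

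The overnight control stood below the control on most of these genes. Both overnight arrays were below both control arrays on 5 of 8 probe sets, Gata3, both of Lef1 and both of Sox4, as were 16.3% of all tested, and above them on 1, Satb1, as were 21.6%. None passed by limma (0 of 8, smallest adjusted p 0.439; 0.217% of all tested passed, 0.0242% being higher), and 2, Gata3 and Satb1, had an unadjusted p under 0.05 (9.04% of all tested). The median was -0.59 against 0.10 over all tested probe sets. The scaling of the arrays moved that last value: it was 0.02 after quantile normalization and -0.13 at a common median. For Gata3 and Sox4 160109_at, the Vbeta5 values differed from the overnight control by 1.10 and 0.80 and from the control by 0.29 and 0.25. The overnight control differed from the control by -0.93 between arrays 1 and -0.69 between arrays 2 for Gata3. For Lef1 these values were -0.43 and -0.37 (103628_at) and -1.11 and -0.16 (103629_g_at). For Sox4 they were -1.13 and -0.28 (101430_at) and -0.84 and -0.27 (160109_at). Array 1 of the overnight control had a Gapdh 3′ to 5′ log2 ratio of 0.95, and its part was not tested.

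Against the control, 0 of 8 passed for Vbeta5 by limma (1.64% of all tested did, 0.628% being higher), with 2 of 8, the Lef1 probe sets, under 0.05 by unadjusted p (11.1% of all tested). Both Vbeta5 arrays were above both control arrays on 4 (29.3% of all tested): both of Lef1, Sox4 160109_at and Ikzf1 102294_at. On 0 of 8 they were below both (19.0% of all tested). For Valpha2, 0 of 8 passed by limma (0.399% of all tested did, 0.0362% being higher), 2 had an unadjusted p under 0.05 (7.39% of all tested), and 4 were lower on both arrays (16.7% of all tested) and 0 higher on both (25.8%). Asked whether any of the 4 groups differed, limma's F test passed 0 of 8 (1.03% of all tested), with the smallest adjusted p, 0.0792, on Lef1 103628_at. By unadjusted p 4 of 8 were under 0.05 in that test (9.67% of all tested).

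Other factors of the T cell program were taken from a list of 25 partners and related genes, 16 of them measured. With Vbeta5 against the overnight control 3 rose, 0 fell and 13 did not pass, and the median was 0.05 against -0.01 over all genes. Of all tested probe sets 0.616% passed there, 0.35% being higher. The list was chosen with earlier results of these data known. The 3 that rose were Egr2 by 3.21 ± 0.36 (SE), Nfatc1 by 3.13 ± 0.49 and Egr1 by 1.92 ± 0.23. Their limma adjusted p were 0.0105, 0.0186 and 0.0105. Of the 13 that did not pass, the smallest p-values belonged to Tcf12 and Id3. Tcf12 differed by -1.0 ± 0.28 (adjusted p = 0.209), and Id3, which holds back E proteins, by 0.78 ± 0.23 (adjusted p = 0.245). The count past the threshold was 0 without Vbeta5 array 2 and with eBayes run without the variance trend. Against the control 4 of 16 were higher with Vbeta5, these 3 and Id3 at 1.3 ± 0.23 (limma adjusted p = 0.0196), and the count was 0 without either control array, 1 without Vbeta5 array 2, 2 without Vbeta5 array 1, 2 at a common median and 1 without the trend. Of all tested probe sets 1.64% passed between Vbeta5 and the control, 0.628% being higher. Between the antibody groups 2 of 16, Egr2 and Egr1, were higher with Vbeta5 (of all tested 0.278% passed, 0.0966% being higher). That count was 0 at a common median, without the trend, with only the 4 arrays compared, without either control array, without Valpha2 array 1 and without Vbeta5 array 2, and 1 without Vbeta5 array 1. Valpha2 against the overnight control gave 0 of 16 past the threshold, as did the overnight control against the control (0.0% and 0.217% of all tested passed).

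Relatives of the members showed no calls. Between Vbeta5 and the overnight control 0.616% of all tested probe sets passed, so a count of 0 in lists this short says little. Of 18 paralogs 10 were measured, among them Tcf7l1, Ikzf2, Gata1 and Tox4, and 0 passed with Vbeta5 against the overnight control, with a median of 0.15. The smallest unadjusted p-values belonged to Tcf7l1, another TCF factor, at 0.90 ± 0.54 (SE; limma adjusted p = 0.754), and Zbtb7a at -0.44 ± 0.42 (adjusted p = 0.932). Of 21 cofactors 16 were measured and 0 passed, with a median of 0.19. Nearest the threshold were Zfpm1 (FOG-1), a partner of GATA factors, at 1.36 ± 0.31 (adjusted p = 0.0972), and Tle3, a corepressor of TCF factors, at 0.89 ± 0.21 (adjusted p = 0.103). Zfpm1 was at 413.5 ± 95.7 in the overnight control and 1075 ± 61.7 with Vbeta5 (SD, n = 2), and the overnight control differed from the control by -0.99 ± 0.31 (adjusted p = 0.325).

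Of 17 T cell genes that textbooks place under these factors, 15 were measured, and with Vbeta5 against the overnight control 0 rose, 3 fell and 12 did not pass. Of all tested probe sets 0.616% passed there, 0.266% being lower. This list, too, was chosen with earlier results of these data known. The recombinase genes Rag2 and Rag1 had log2 differences of -3.65 ± 0.54 (SE) and -2.44 ± 0.37, and the survival gene Bcl2l1 (Bcl-xL) of -1.87 ± 0.26, with limma adjusted p of 0.0154, 0.0171 and 0.0136. A second Rag1 probe set differed by -0.06. The coreceptor genes Cd8a (-1.26, adjusted p = 0.0518), Cd8b1 (-1.45, adjusted p = 0.0779) and Cd4 (-1.51, adjusted p = 0.10) did not pass in this comparison. The list's median was -1.03 against -0.01 over all genes. The count was 0 without the trend, without Vbeta5 array 2 and without overnight control array 2, 1 without overnight control array 1, 2 at a common median, 5 without Vbeta5 array 1 and 6 after quantile normalization.

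Of 16 factors of other blood lineages 8 were measured and 0 passed in any of the 6 comparisons, with a median of 0.23 for Vbeta5 against the overnight control. Of all tested probe sets 0.0% to 1.64% passed in these comparisons, so 0 of 8 says little about these factors.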

How the data were processed

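The authors deposited 1 table with a signal (intensity) for each of 12488 probe sets on 8 arrays. Per the labels these intensities are normalized; the sources used here do not give the software, the method or the target. The mean trimmed by 2% at each end was 250.14 to 250.16 on every array.

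Control probe sets (66) were left out. Symbols came from the platform annotation, updated by gene identifier through a RefSeq table of GRCm38.p6: 10833 probe sets had 1 symbol (10817 of them matched), 396 several and 1193 none, and none was named from several. Promoter windows came from RefSeq. The signal was taken as log2(signal + 17), where 17 is the 20th percentile of positive values, and probe sets in the lowest 33.3% of mean signal were not tested.

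limma 3.58.1 in R 4.3.3 fitted 1 mean per group to all 8 arrays, with eBayes's trend (6.44 prior and 4 residual degrees of freedom), and was tested on simulated data. With 2 arrays a group, the smallest p of an exact permutation test is 0.333, so none was run. A gene in a list is its brightest tested probe set. All probe sets of the members are described. List genes are named where they passed or had the smallest p-values. The values of Id3, Tcf12, Cd8a, Cd8b1 and Cd4 against the overnight control and of Zfpm1 against the control were added after their values were seen. So were those of the textbook genes against the control and between the antibody groups, and of the other Ighm probe sets. The members and lists were chosen with earlier results of these data known. Alternatives changed the normalization (quantile; a common median), the low signals (an offset of 8.5; a floor), the filter (none; dimmest 50%), the trend, the arrays fitted and the array number as a block; counts in the lists under them were added after seeing the data.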

Additional observations from a re-analysis of the deposited data

How the results depend on the processing

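The differences of the 8 tested member probe sets in 6 comparisons, 48 values, were recomputed in up to 18 settings, and 32 of the 48 kept their sign in all of them. In Vbeta5 minus overnight control these 32 include both Lef1 probe sets, Gata3, Satb1 and Sox4 160109_at. The count of member probe sets past the threshold, 0 in each comparison, stayed at 0 under both other normalizations, both other treatments of low signals, both other filters and no variance trend. A replicate block on array number gave 3 (both Lef1 and Gata3, limma) in Vbeta5 minus overnight control, 3 in Vbeta5 minus Valpha2 and 3 in the F test, at smallest adjusted p of 0.00746, 0.0129 and 0.0109, and 0 in the other comparisons. Same-numbered arrays deviated from their group means together at r = 0.104 to 0.347 over tested probe sets, but the labels do not say what a number marks. Leaving out the arrays numbered 1 of the overnight control, Valpha2 and Vbeta5 gave 2 in Vbeta5 minus overnight control, 1 in Vbeta5 minus control and 1 in the F test; there 3 groups hold 1 array each and the control pair alone gives the spread (1 residual degree of freedom), so these calls are no replicate test. Only the 4 arrays compared gave 1 for Vbeta5 against the control. Leaving out 1 array at a time gave 0 to 1, the F test reaching 1 without overnight control array 2; the lone array is assumed to vary like the other groups. The cause was not tested. Over all tested probe sets, the 51 past the threshold between Vbeta5 and the overnight control became 125 with the block, 170 without those 3 arrays (same limit), 29 at a common median, 29 with only the 4 arrays compared, 0 without the trend and 0 to 54 leaving out 1 array.

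Without those 3 arrays, Valpha2 minus overnight control turned to 0.08 (Sox4 101430_at), 0.05 (Sox4 160109_at), 0.11 (Ikzf1 102293_at) and 0.55 (Ikzf1 102294_at), Vbeta5 minus control to 0.18 for both Sox4 101430_at and Ikzf1 102293_at, and overnight control minus control to -0.47 for Ikzf1 102294_at. That probe set's Valpha2 difference was also 0.05 at a common median and 0.02 with a floor. Leaving out 1 array turned the sign in 16 values. Valpha2 minus overnight control ran from -0.26 to 0.32 for Gata3, from -0.10 to 0.37 and -0.49 to 0.55 for Lef1 (103628_at, 103629_g_at), from -0.83 to 0.57 and -0.80 to 0.29 for Sox4 (101430_at, 160109_at), and from -1.73 to 0.81 and -0.86 to 0.79 for Ikzf1 (102293_at, 102294_at). Vbeta5 minus overnight control ran from -0.29 to 0.89 for Sox4 101430_at, -0.37 to 1.03 for Ikzf1 102293_at and -0.54 to 1.10 for Ikzf1 102294_at. Vbeta5 minus Valpha2 ran from -0.27 to 1.13 (Sox4 101430_at) and -0.48 to 2.06 (Ikzf1 102293_at), and Vbeta5 minus control from -0.99 to 0.18, -1.21 to 0.18 and, for Satb1, -0.19 to 0.61. Overnight control minus control ran from -0.47 to 1.17 for Ikzf1 102294_at.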
